A study of Mus musculus with 3 samples.

Results

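Genes that make sterols, fatty acids and phospholipids were followed in plasma cells and B cells of mice that report Il10 expression. A list of 37 genes was matched by symbol to the annotated probes of the array, and 35 of them had a probe, 1 each, among 16390 named genes. They comprised 11 enzymes of sterol synthesis, 5 regulators of lipid synthesis, 10 enzymes of fatty acid synthesis and 9 enzymes that build phospholipids and other glycerolipids. Hmgcs1 and Fdps, both sterol enzymes, had no probe under their symbol and were not analysed here. Of the 35 genes, 31 were detected on all 3 arrays, Elovl6 was detected on the B220+ array only, and Pmvk, Gpam and Dgat2 were detected on none.

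The 3 populations were freshly sorted on a flow cytometer from mice of the IL-10 Venus line, a reporter in which the fluorescent protein Venus stands for Il10 expression. They were Venus+ CD138hi cells of the bone marrow, Venus+ CD138hi cells of the spleen and B220+ cells of the spleen, and all came from the same reporter genotype, with no treatment named. CD138 is a surface protein of plasma cells and B220 a surface form of CD45 on B cells. The sources used here give no age, sex, number of mice or pooling. RNA of each population was hybridized in 1 colour to 1 array, so there were no replicates, no test was made, and array, sort and population cannot be told apart. The comparison of bone marrow Venus+ with spleen B220+ cells also differs in organ.

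Values are the authors' normalized signals, which are background-subtracted and scaled so that the median detected signal of each array is 25. A signal is set only against the same probe on another array. A gene is called higher or lower where both arrays detected it and its signals differed at least 2-fold, a log2 ratio of 1 or more in size. Each log2 ratio is given with its spot error, which joins the spread of blank spots with that of replicate control spots on the compared arrays and leaves out the spread between mice or sorts. In sorted populations, fewer cells of a type and less RNA per cell cannot be told apart.

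The arrays detected 67.6% of 23473 probes in bone marrow Venus+, 73.4% in spleen Venus+ and 72.1% in B220+ cells. Plasma cell markers followed the labels, since 6 of 6 genes detected on both arrays were higher in each Venus+ population than in B220+ cells, and the summed signal of 7 such markers was 21084, 12809 and 711.1 in bone marrow Venus+, spleen Venus+ and B220+ cells. B cell markers were lower in 5 of 5 genes for bone marrow and 6 of 6 for spleen Venus+ cells, although Cd79b kept signals of 3510 and 7075, against 15341 in B220+ cells. Granulocyte markers were carried mainly by the B220+ array, with summed signals of 227.6, 40.1 and 5164 in the same order of populations, and S100a9 and Camp were not detected in spleen Venus+ cells. Of 8 such markers detected on the bone marrow and B220+ arrays, 7 were lower in bone marrow Venus+ cells and 1, Mpo, was higher, at 29.8 against 2.2 in B220+ cells. Basophil, mast cell and eosinophil markers summed to 6372, 4896 and 85.7, of which Prg2 gave 6084, 4646 and 3.8 and Mcpt8 143.4, 43 and 17.5. The summed macrophage markers were 285.9, 159.7 and 98.7, with Cd68 at 240.8, 111.2 and 33. Of 5 such markers detected on both arrays, 2 were higher and 2 lower in bone marrow Venus+ cells than in B220+ cells. In spleen Venus+ cells 2 were higher and 1 lower. Cd68 and Mrc1 were higher in both, Vcam1 was lower in both, and C1qa, Adgre1 and Marco were detected in B220+ cells only. Summed T cell markers were 1177, 797 and 47.8, of which Cd247 alone gave 1038.5, 637 and 15.7, and the part of these other cell types in the results was not tested.

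Cells make cholesterol from acetyl-CoA through mevalonate, squalene and lanosterol, and make fatty acids from the same precursor through malonyl-CoA. SREBP transcription factors switch on both branches when the escort protein Scap carries them out of the endoplasmic reticulum, and Insig proteins hold Scap back when sterols are plentiful. Phosphatidylcholine, the main phospholipid of that membrane, is made from choline by the Kennedy pathway. Plasma cells are known for an expanded endoplasmic reticulum, and in mice the factor Xbp1 has been linked to the growth of its membrane.

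Named enzymes of these pathways differed in opposite directions between the populations. Pcyt1a and Chka, which run the early steps of phosphatidylcholine synthesis, were higher in both Venus+ populations than in B220+ cells, as were Lss and Insig1. With normexp, a model-based background correction, Chka (0.85 and 0.70), Lss (0.80 and 0.83) and Insig1 were under 2-fold in both, while Pcyt1a stayed past it. Scd1, Elovl5, Cept1 and Insig2 were lower in both. In spleen Venus+ cells Cept1 was under 2-fold after quantile normalization (-0.94) and with spots without a probe as background (-0.89), and Insig2 under these (-0.99 and -0.84) and the normexp background (-0.92). In bone marrow Venus+ cells Insig2 was under 2-fold after quantile normalization (-0.67) and with the normexp background (-0.98). The same held with spots without a probe as background (-0.99) and with scaling to probes detected on all arrays (-0.94). In bone marrow Venus+ against B220+ cells, 8 of 31 members were higher and 12 lower, where 22.5% of all 10814 genes detected on both arrays were higher and 30.7% lower. In spleen Venus+ against B220+ cells, 5 of 31 were higher and 4 lower, where 15.8% of 11619 genes were higher and 16.5% lower. Between bone marrow and spleen Venus+ cells, 0 of 31 were higher and 7 lower, where 4.31% of 11352 genes were higher and 15.2% lower. As a share, the members called either way were 64.5%, 29.0% and 22.6% in these comparisons, against 53.3%, 32.3% and 19.5% of all genes, so the shares lay near those of all genes and are no result about lipid synthesis as a whole. The median log2 ratios of the members were -0.44, 0.13 and -0.22, and those of all genes -0.24, -0.02 and -0.17.

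**Figure D1:**
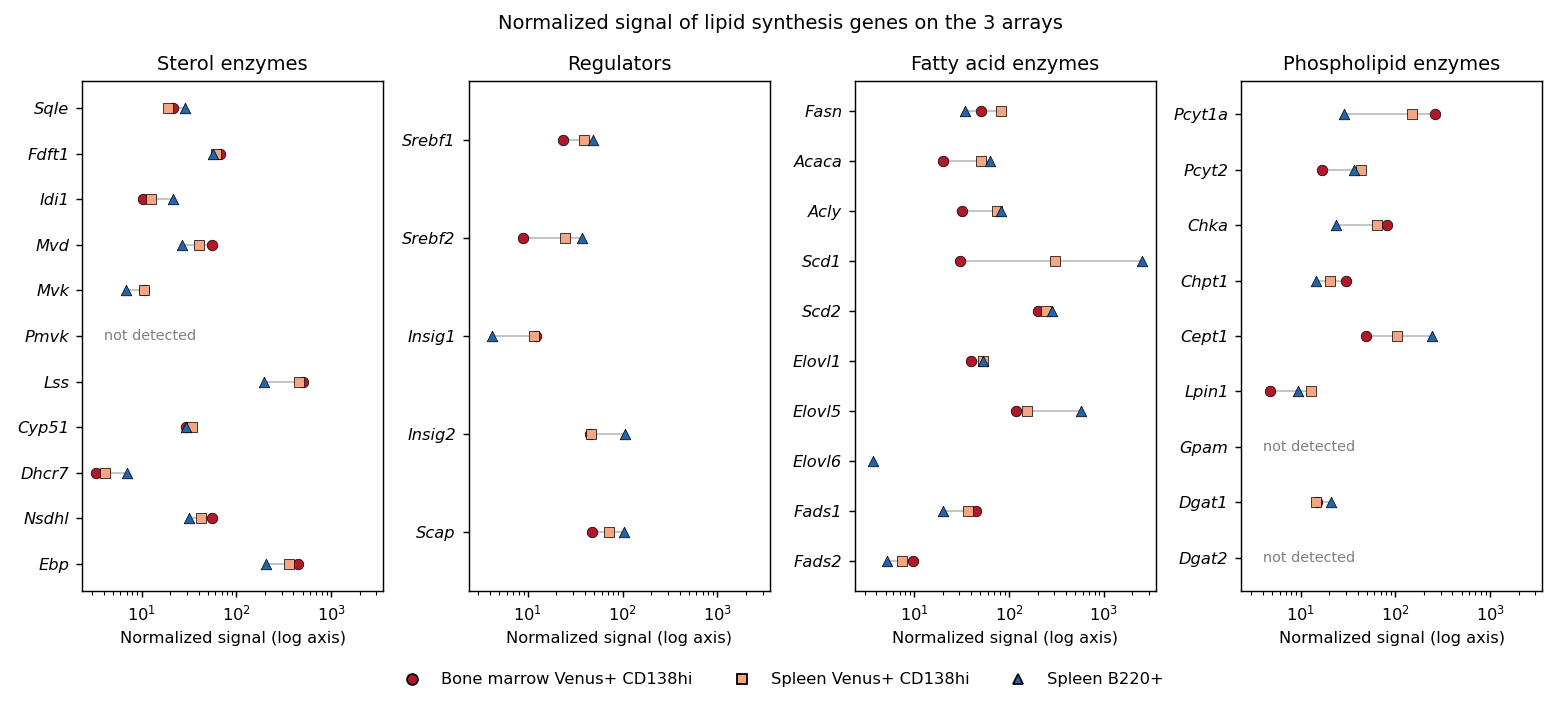
Normalized signal (log axis, no unit) of each of the 35 genes on the array of bone marrow Venus+ CD138hi cells (circles), spleen Venus+ CD138hi cells (squares) and spleen B220+ cells (triangles), in 1 panel for each role, with 1 array per population. Grey lines span the arrays on which a gene was detected. Scd1 spans the widest range, from 30.6 in bone marrow Venus+ to 2552 in B220+ cells, and Pcyt1a runs the other way.

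The scaling of the bone marrow array bears on these counts. With a scaling that used only probes detected on every array (the shared-probe scaling), the bone marrow to B220+ comparison had 10 members higher and 6 lower, and 54.0% of all called genes were higher, where the deposited values gave 42.3%. For bone marrow against spleen Venus+ cells that scaling gave 1 member higher and 4 lower, and 57.9% of all called genes were higher, against 22.1% as deposited. Over all genes the median log2 ratio became 0.05 in place of -0.24 in the first of these and 0.16 in place of -0.17 in the other. A difference between the log2 ratios of 2 genes in 1 comparison does not depend on this scaling, and such differences are given for related members below.

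The promoters of 6 genes are shown, picked from the members that lay on the same side of B220+ cells in both Venus+ populations. Pcyt1a, Chka, Lss, Ebp and Insig1 were higher and Elovl5 lower, with Ebp under 2-fold in spleen Venus+ cells. Other members on the same side in both, such as Insig2, are not shown. The 6 genes were chosen after their values were seen. Each sequence is the 250 bases before an annotated start, 5′ to 3′ on the strand of the gene, from RefSeq on GRCm38.p6, and the start farthest upstream was taken for Pcyt1a, which had 3 in the table. Capitals mark a sterol regulatory element spelled TCACNCCAC, the CCAAT box read by NF-Y, or the E-box spelled CACGTG, on either strand.
Pcyt1a, chr16:32430671-32430920, plus strand: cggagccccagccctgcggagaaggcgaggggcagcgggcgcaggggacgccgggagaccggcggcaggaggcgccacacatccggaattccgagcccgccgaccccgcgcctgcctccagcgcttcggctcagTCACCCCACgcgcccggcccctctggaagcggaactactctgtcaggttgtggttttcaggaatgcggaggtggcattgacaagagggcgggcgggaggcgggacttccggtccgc
Chka, chr19:3851523-3851772, plus strand: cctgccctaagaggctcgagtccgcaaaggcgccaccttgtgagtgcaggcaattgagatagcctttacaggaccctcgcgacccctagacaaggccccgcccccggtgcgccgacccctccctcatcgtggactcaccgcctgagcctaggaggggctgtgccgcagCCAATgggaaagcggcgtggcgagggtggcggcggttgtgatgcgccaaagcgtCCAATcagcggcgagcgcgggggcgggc
Lss, chr10:76531355-76531604, plus strand: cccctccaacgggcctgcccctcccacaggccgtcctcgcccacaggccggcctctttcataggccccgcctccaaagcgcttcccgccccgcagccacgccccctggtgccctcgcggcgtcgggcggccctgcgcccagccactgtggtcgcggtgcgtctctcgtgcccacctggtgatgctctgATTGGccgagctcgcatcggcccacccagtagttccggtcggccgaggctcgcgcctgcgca
Ebp, chrX:8193513-8193762, minus strand: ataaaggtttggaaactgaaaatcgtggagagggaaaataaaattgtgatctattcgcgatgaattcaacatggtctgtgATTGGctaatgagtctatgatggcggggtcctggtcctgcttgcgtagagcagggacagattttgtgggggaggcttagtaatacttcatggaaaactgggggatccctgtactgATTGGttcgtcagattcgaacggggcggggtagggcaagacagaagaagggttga
Insig1, chr5:28071162-28071411, plus strand: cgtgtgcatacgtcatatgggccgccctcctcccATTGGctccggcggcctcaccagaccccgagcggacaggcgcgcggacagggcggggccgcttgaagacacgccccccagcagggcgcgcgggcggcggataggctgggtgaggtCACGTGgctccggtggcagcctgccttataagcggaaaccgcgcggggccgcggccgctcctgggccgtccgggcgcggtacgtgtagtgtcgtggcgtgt
Elovl5, chr9:77917115-77917364, plus strand: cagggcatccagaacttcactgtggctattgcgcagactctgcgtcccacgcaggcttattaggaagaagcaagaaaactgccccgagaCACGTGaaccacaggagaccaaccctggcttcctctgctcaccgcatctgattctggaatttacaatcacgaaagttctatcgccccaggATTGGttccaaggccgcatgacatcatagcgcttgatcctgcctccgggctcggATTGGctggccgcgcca
The Pcyt1a sequence held the sterol regulatory element TCACCCCAC from 116 to 108 bases before this start. CCAAT or its complement ATTGG was found in the other 5, and CACGTG in those of Insig1 and Elovl5.

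Promoter sequences were found for 27 of the 35 members. The sterol regulatory element spelled as above was in 1 of these 27 genes, Pcyt1a, and in 1.22% of 27025 genes in the table, counting a gene once over all its starts. CCAAT on either strand was in 19 of 27 members (70.4%), against 37.5% of all genes, and in 9 of 9 sterol enzymes, 4 of 5 regulators, 3 of 7 fatty acid enzymes and 3 of 6 phospholipid enzymes. CACGTG was in 4 of 27 (14.8%), namely Dhcr7, Elovl5, Insig1 and Scap, against 6.86% of all genes. The unfolded protein response element TGACGTGG was in 0 of 27 and in 0.603% of all genes. All genes here are the 27025 of the promoter table, which was not limited to genes with a probe or to detected genes. No background matched to the members was used. These motifs can overlap each other, and a match describes letters and not a bound site.

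Phosphatidylcholine synthesis held the member with the highest log2 ratio over B220+ cells in both Venus+ populations, Pcyt1a. Chka, the choline kinase of the Kennedy pathway's first step, had signals of 82.0 in bone marrow Venus+, 64.3 in spleen Venus+ and 23.7 in B220+ cells. It was 3.46-fold higher in bone marrow Venus+ cells (log2 ratio 1.79 ± 0.14) and 2.71-fold higher in spleen Venus+ cells (1.44 ± 0.14). Pcyt1a, the CTP-dependent transferase that controls the rate of the pathway, had signals of 258.9, 150.3 and 28.9 in the same order. Its signal was 8.96-fold higher in bone marrow Venus+ cells (3.16 ± 0.14) and 5.20-fold higher in spleen Venus+ cells (2.38 ± 0.14), and 3.27% and 3.52% of all genes had a higher ratio in those comparisons. Thus Chka and Pcyt1a, which act in sequence in the pathway, stood above B220+ cells in both Venus+ populations.

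The last step of that pathway split between 2 enzymes. Chpt1, which joins phosphocholine to diacylglycerol, had signals of 30.5 in bone marrow Venus+, 20.3 in spleen Venus+ and 14.6 in B220+ cells, with log2 ratios over B220+ cells of 1.06 ± 0.16 and 0.48 ± 0.16, of which the spleen ratio is under 2-fold. Cept1, which makes both phosphatidylcholine and phosphatidylethanolamine, had signals of 48.9, 103.3 and 245.7, and was 5.02-fold lower in bone marrow and 2.38-fold lower in spleen Venus+ cells than in B220+ cells. The log2 ratio of Chpt1 exceeded that of Cept1 by 3.39 ± 0.21 in bone marrow and 1.73 ± 0.21 in spleen Venus+ cells. Pcyt2, which acts on phosphoethanolamine as Pcyt1a acts on phosphocholine, had signals of 16.9, 43.9 and 37.0. It was 2.19-fold lower in bone marrow Venus+ cells than in B220+ cells (-1.13 ± 0.17) and lay within 2-fold in spleen Venus+ cells (0.25 ± 0.14), so the ratio of Pcyt1a exceeded that of Pcyt2 by 4.29 and 2.13 on the log2 scale.

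Other glycerolipid enzymes lay within 2-fold of B220+ cells or were not detected. Lpin1, a phosphatidate phosphatase that supplies diacylglycerol, had signals of 4.8 in bone marrow Venus+, 12.9 in spleen Venus+ and 9.3 in B220+ cells, with log2 ratios over B220+ cells of -0.95 ± 0.39 and 0.47 ± 0.20. Dgat1, which turns diacylglycerol into triglyceride, had signals of 14.8, 14.4 and 21.1, lower than in B220+ cells by less than 2-fold in both (-0.51 ± 0.18 and -0.55 ± 0.17). The acyltransferase genes Gpam and Dgat2 were not detected on any array. Over the 7 phospholipid enzymes measured, 3 were higher and 2 lower in bone marrow Venus+ cells, with a median log2 ratio of -0.51, and 2 were higher and 1 lower in spleen Venus+ cells, with a median of 0.47. For all genes the shares were 22.5% higher and 30.7% lower in the bone marrow comparison (median -0.24). In the spleen comparison they were 15.8% and 16.5% (median -0.02), and nothing is read from these few calls about the group.

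Sterol enzymes showed a narrower spread. From mevalonate onward, the kinase gene Mvk had signals of 10.6 in bone marrow Venus+, 10.5 in spleen Venus+ and 6.9 in B220+ cells, and the decarboxylase gene Mvd had 54.9, 40.8 and 26.5. Mvd was 2.07-fold higher in bone marrow Venus+ cells (1.05 ± 0.14), while its ratio in spleen (0.62 ± 0.15) and those of Mvk (0.62 ± 0.25 and 0.61 ± 0.23) were under 2-fold. Idi1, the isomerase that follows Mvd, had signals of 10.4, 12.7 and 21.3 and went the other way, 2.05-fold lower in bone marrow Venus+ cells (-1.03 ± 0.22) and 1.68-fold lower in spleen Venus+ cells. Squalene synthase (Fdft1) had signals of 66.6, 61.7 and 56.2, and squalene epoxidase (Sqle), a rate-limiting oxygenase, had 21.5, 18.8 and 28.7. Neither differed 2-fold from B220+ cells in either Venus+ population.

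Lss, which closes squalene epoxide into lanosterol, had the highest ratio over B220+ cells of the measured sterol enzymes, with signals of 505.6 in bone marrow Venus+, 457.9 in spleen Venus+ and 197.6 in B220+ cells. Its signal was 2.56-fold higher in bone marrow (1.36 ± 0.13) and 2.32-fold higher in spleen Venus+ cells (1.21 ± 0.14). Ebp, a sterol isomerase of the endoplasmic reticulum, had signals of 446.4, 356.2 and 205.7, which is 2.17-fold higher in bone marrow (1.12 ± 0.13) and 1.73-fold higher in spleen Venus+ cells (0.79 ± 0.14). Both genes stood in the same order on the 3 arrays as Mvd and Nsdhl. Nsdhl, a dehydrogenase that helps remove methyl groups from lanosterol, had signals of 55.2, 42.9 and 31.3, under 2-fold in both comparisons (0.82 ± 0.14 and 0.45 ± 0.14).

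Cyp51, the lanosterol demethylase, stood level with B220+ cells at 29.5, 34.3 and 29.1. Dhcr7, the reductase that finishes cholesterol, was dim at 3.3, 4.1 and 7.1. Its 2.15-fold lower signal in bone marrow Venus+ cells (-1.11 ± 0.55) rests on a value below 3.77, the 95th percentile of spots without a probe on that array. In all, 3 of 10 measured sterol enzymes were higher and 2 lower in bone marrow Venus+ cells than in B220+ cells, with a median log2 ratio of 0.43. In spleen Venus+ cells 1 was higher and 0 lower, with a median of 0.35. The shares of all genes were 22.5% higher and 30.7% lower in the bone marrow comparison, and 15.8% and 16.5% in spleen.

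The regulators were mostly on the low side in Venus+ cells. Srebf2, the SREBP gene tied mainly to sterol synthesis, had signals of 8.8 in bone marrow Venus+, 24.8 in spleen Venus+ and 37.0 in B220+ cells, 4.20-fold lower in bone marrow (-2.07 ± 0.24) and 1.49-fold lower in spleen Venus+ cells (-0.58 ± 0.15). Srebf1, tied mainly to fatty acid synthesis, had 23.4, 39.0 and 48.7, and Scap had 46.9, 71.4 and 102.5. Both were just past 2-fold lower in bone marrow Venus+ cells (-1.06 ± 0.15 and -1.13 ± 0.14) and within 2-fold in spleen Venus+ cells (-0.32 ± 0.14 and -0.52 ± 0.14). Under the shared-probe scaling, Srebf1, Scap and Insig2 were under 2-fold in bone marrow Venus+ cells, as were Idi1, Dhcr7 and Pcyt2. With the normexp background, Srebf2 (-0.64), Srebf1 (-0.56), Scap (-0.92) and Insig2 (-0.98) were under 2-fold in bone marrow Venus+ cells.

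The 2 Insig genes differed in direction. Insig1, itself a known SREBP target, had signals of 12.1 in bone marrow Venus+, 11.5 in spleen Venus+ and 4.2 in B220+ cells, 2.88-fold higher in bone marrow (1.53 ± 0.30) and 2.74-fold higher in spleen Venus+ cells (1.45 ± 0.29). Insig2 had signals of 44.7, 45.9 and 104.9, lower by 2.35-fold and 2.29-fold (-1.23 ± 0.14 and -1.19 ± 0.14). The log2 ratio of Insig1 exceeded that of Insig2 by 2.76 ± 0.33 in bone marrow and 2.65 ± 0.32 in spleen Venus+ cells, and both genes were level between the Venus+ populations. Insig1 is dim in B220+ cells, and with a pseudocount of 5 it was under 2-fold in both comparisons.

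Scd1 had the largest difference of all members. This stearoyl-CoA desaturase, which makes monounsaturated fatty acids, had signals of 30.6 in bone marrow Venus+, 308.8 in spleen Venus+ and 2552 in B220+ cells. It was 83.4-fold lower in bone marrow (-6.38 ± 0.14) and 8.26-fold lower in spleen Venus+ cells (-3.05 ± 0.14) than in B220+ cells, and 0.0555% and 0.559% of all genes had a lower ratio. Its paralogue Scd2 had signals of 203.7, 247.6 and 282.9, within 2-fold in both comparisons (-0.47 ± 0.13 and -0.19 ± 0.14). The log2 ratio of Scd2 exceeded that of Scd1 by 5.91 ± 0.20 and 2.85 ± 0.19. Probe sequences are not used here, so cross-hybridization between these similar genes was not tested.

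Markers of other cells stood beside the Scd1 difference. Of the granulocyte markers named above, S100a9 and Camp were also highest in B220+ cells, but Mpo was highest in bone marrow Venus+ cells. S100a8 had 66.9 in bone marrow Venus+, 12.5 in spleen Venus+ and 1650 in B220+ cells. The part of these markers in the Scd1 result was not tested. Of 7 erythroid markers, 3 were lower and 0 higher in each Venus+ population than in B220+ cells, with summed signals of 58.8, 55.4 and 351. Of fat cell genes, Adipoq was not detected on any array, Fabp4 had a signal of 1.9 in B220+ cells only, and Cfd had 2.9, 4.5 and 2.7. Plin1 had 15.4, 10.5 and 4.7, which was 3.28-fold higher in bone marrow and 2.23-fold higher in spleen Venus+ cells.

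The remaining fatty acid enzymes went both ways. Fasn, the fatty acid synthase, had signals of 50.3 in bone marrow Venus+, 82.7 in spleen Venus+ and 34.3 in B220+ cells, which was 2.41-fold higher in spleen (1.27 ± 0.14) and 1.47-fold higher in bone marrow Venus+ cells (0.55 ± 0.14). The enzymes that supply it did not follow it. Acly, which makes cytosolic acetyl-CoA from citrate, had 32, 74.9 and 82.8, and Acaca, which makes malonyl-CoA, had 20.2, 50.5 and 63.1. Both were lower in bone marrow Venus+ cells than in B220+ cells, by 2.59-fold (-1.37 ± 0.14) and 3.12-fold (-1.64 ± 0.16), and within 2-fold in spleen Venus+ cells (-0.14 ± 0.14 and -0.32 ± 0.14).

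Elongases and desaturases of longer chains also differed among themselves. Elovl5, which lengthens polyunsaturated chains, had signals of 119.8 in bone marrow Venus+, 155.4 in spleen Venus+ and 574.0 in B220+ cells, lower by 4.79-fold (-2.26 ± 0.13) and 3.69-fold (-1.89 ± 0.14). Elovl1, which makes very long saturated chains, had 39.5, 52.9 and 53.5 and stayed within 2-fold, and its log2 ratio exceeded that of Elovl5 by 1.82 and 1.87. Elovl6, which lengthens palmitate, had a signal of 3.7 in B220+ cells and was not detected in Venus+ cells. No fold is given for it, since a call needs a signal on both arrays. Its B220+ signal lies above the 95th percentile of spots without a probe on that array, 2.89. On the bone marrow array that percentile is 3.77. Fads1 and Fads2, the desaturases that work with Elovl5, were on the high side. Fads1 had 45.3, 36.6 and 20, 2.27-fold higher in bone marrow (1.18 ± 0.15) and 1.83-fold higher in spleen Venus+ cells, and Fads2 had 9.7, 7.5 and 5.2, under 2-fold in both. Over the 9 fatty acid enzymes measured, 1 was higher and 4 lower in bone marrow Venus+ cells, with a median log2 ratio of -0.47. In spleen Venus+ cells 1 was higher and 2 lower, with a median of -0.14. Among all genes 22.5% were higher and 30.7% lower in the bone marrow comparison, and 15.8% and 16.5% in spleen.

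**Figure D2:**
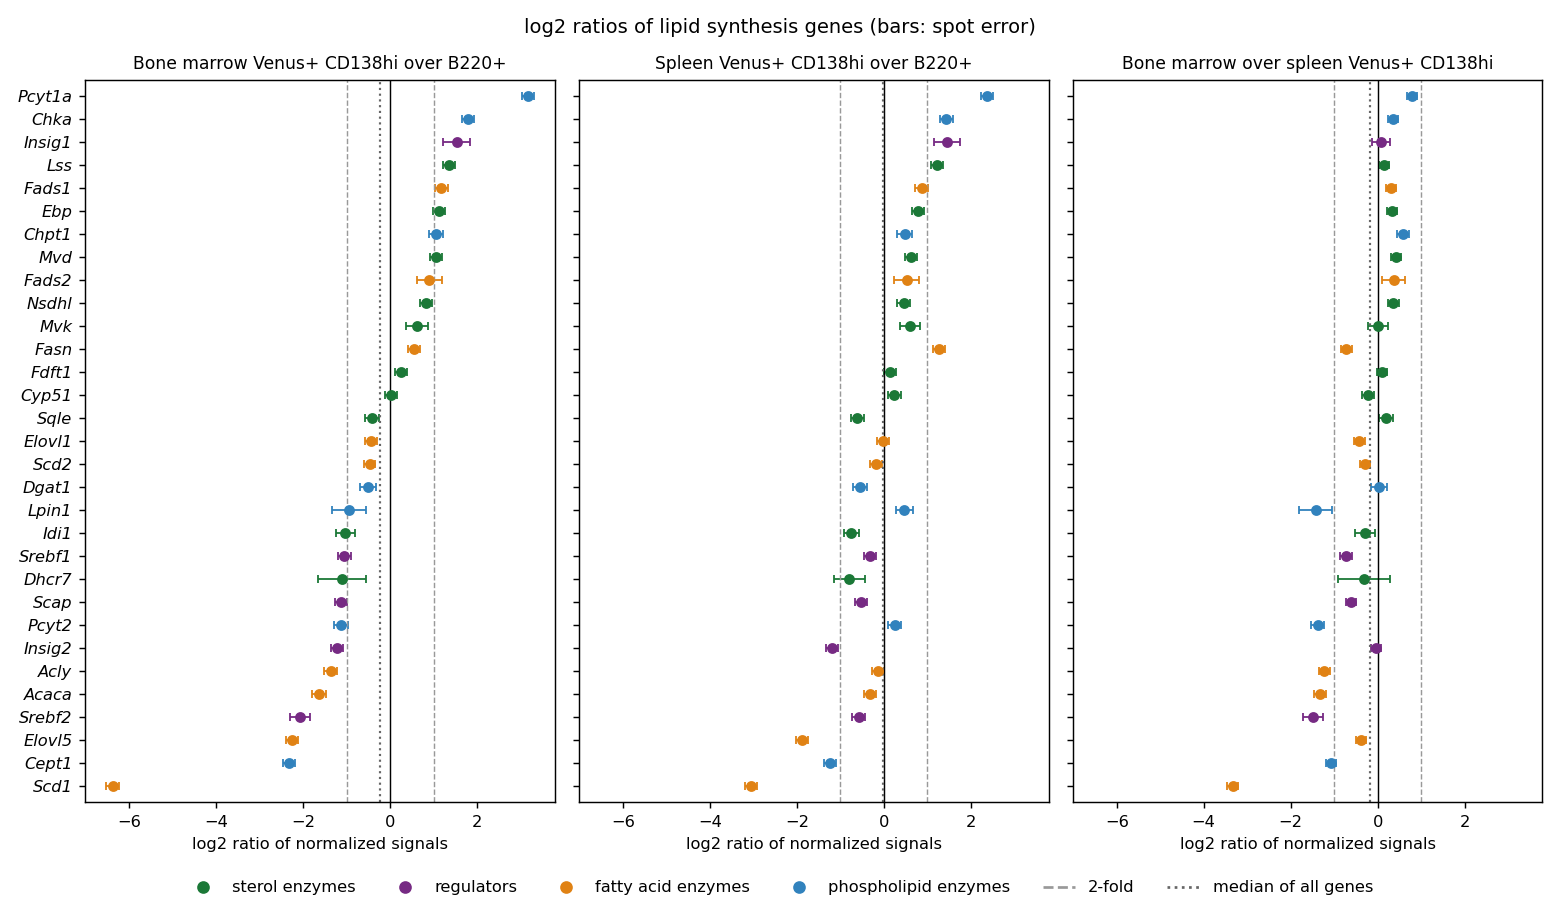
log2 ratio of normalized signals for the 31 genes detected on all arrays, in bone marrow Venus+ CD138hi over B220+ cells, spleen Venus+ CD138hi over B220+ cells, and bone marrow over spleen Venus+ CD138hi cells. Points are coloured by role, bars are the spot error of 1 array per population, dashed lines mark 2-fold and dotted lines the median of all genes. Pcyt1a lies at the top of each panel (3.16, 2.38 and 0.78) and Scd1 at the bottom (-6.38, -3.05 and -3.34).

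Between the 2 plasma cell populations, the 10 measured sterol members lay within 2-fold while several fatty acid and phospholipid enzymes were lower in bone marrow. Scd1 was 10.1-fold lower in bone marrow than in spleen Venus+ cells (-3.34 ± 0.13). Srebf2 was 2.82-fold lower (-1.49 ± 0.23), Lpin1 2.69-fold (-1.43 ± 0.38), Pcyt2 2.60-fold (-1.38 ± 0.15), Acaca 2.50-fold (-1.32 ± 0.14), Acly 2.34-fold (-1.23 ± 0.13) and Cept1 2.11-fold (-1.08 ± 0.12). Of these 7 genes, 3 make or modify fatty acids, 3 belong to phospholipid synthesis and 1 is a regulator. The highest ratios were those of Pcyt1a (0.78 ± 0.11), Chpt1 (0.59 ± 0.14) and Mvd (0.43 ± 0.12), all under 2-fold. Under the shared-probe scaling, Acaca, Acly and Cept1 were under 2-fold, and Pcyt1a was past 2-fold. Lpin1, which rests on a signal of 4.8 in bone marrow Venus+ cells, was under 2-fold with a pseudocount of 5 (-0.87) and with the normexp background (-0.16). Srebf2 (-0.34), Pcyt2 (-0.52), Acaca, Acly and Cept1 were also under 2-fold with the normexp background, which left only Scd1 past it.

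Set against each other, sterol enzymes stood above fatty acid and phospholipid enzymes in each comparison. The median log2 ratio over B220+ cells in bone marrow Venus+ cells was 0.43 for 10 sterol enzymes and -0.49 for 16 fatty acid and phospholipid enzymes, a difference of 0.92. In spleen Venus+ cells the medians were 0.35 and 0.12 and their difference was 0.23. The median spot errors of single genes in both groups join to 0.20. This value leaves out the spread between genes and is no error of the difference. That difference was 0.14 after quantile normalization, 0.16 with the normexp background and 0.43 for values of 10 or more. For bone marrow against spleen Venus+ cells they were 0.13 and -0.40, a difference of 0.52. Relative to the median of all genes, the sterol enzymes lay 0.68, 0.36 and 0.30 higher in these comparisons, and the others lay at -0.25, 0.13 and -0.23. The ranges overlapped widely, since in bone marrow against B220+ cells the sterol enzymes ran from -1.11 to 1.36 and the others from -6.38 to 3.16. In bone marrow against spleen Venus+ cells, the 10 sterol enzymes ran from -0.31 to 0.43 and 0 were called, while 6 of the 16 others were at least 2-fold lower, where 15.2% of all genes were lower. Of those 6 calls, Acaca, Acly and Cept1 were under 2-fold with the shared-probe scaling. With the normexp background these and Pcyt2 and Lpin1 were under 2-fold, and only Scd1 stayed past it. No test was possible with 1 array per population.

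**Figure D3:**
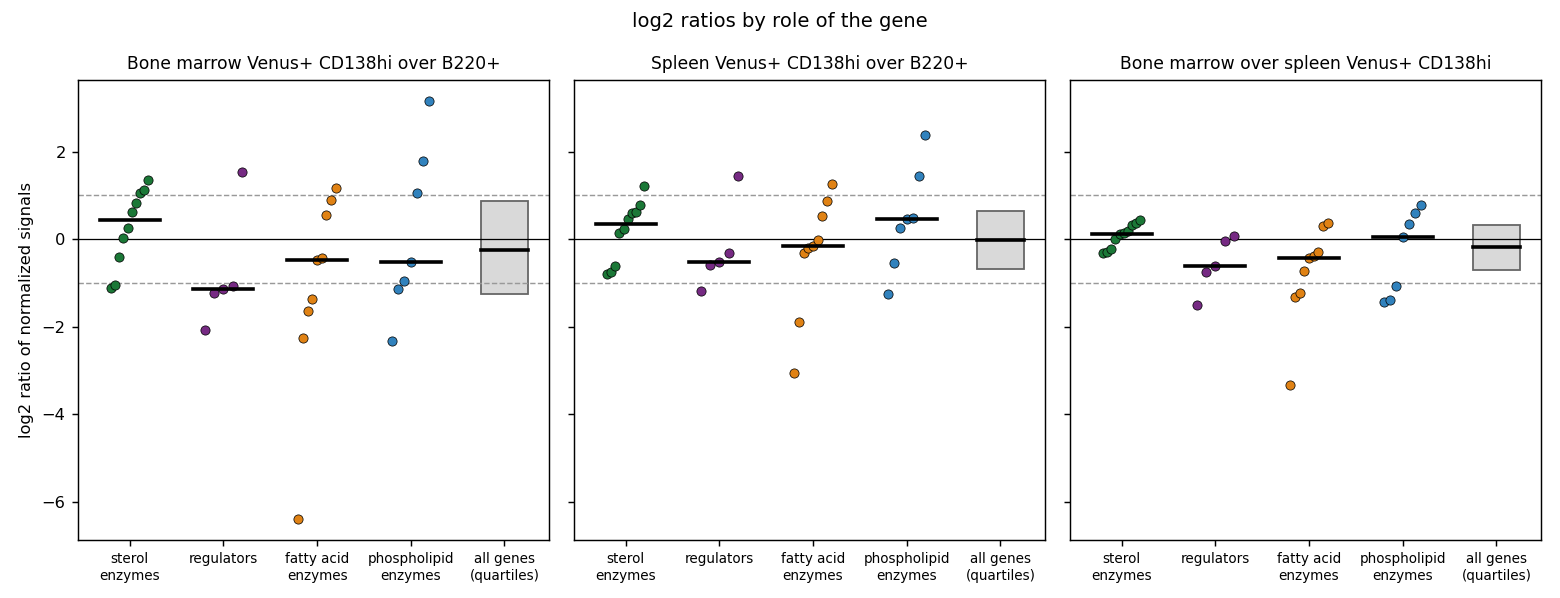
log2 ratio of normalized signals (vertical axis) by role in the 3 comparisons, with 1 point per gene, thick lines for group medians, a grey box for the quartiles of all genes and dashed lines at 2-fold. The sterol median lies above 0 in each panel (0.43, 0.35 and 0.13) and the regulator median below it (-1.13, -0.52 and -0.61).

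Other genes of the same pathways, taken from lists of further enzymes and handling proteins, were read beside the members. Of 7 further sterol enzymes detected on all arrays, 1 was higher and 3 lower in bone marrow Venus+ than B220+ cells (median -0.94). In spleen Venus+ cells 1 was higher and 2 lower (median -0.83). All genes gave 22.5% higher and 30.7% lower in bone marrow (median -0.24), and 15.8% and 16.5% in spleen (median -0.02). Nothing is read from these few calls about the list. Its medians did not share the positive sign of those of the member enzymes. Between bone marrow and spleen Venus+ cells 1 was higher and 1 lower (median -0.31), with Tm7sf2 at 1.18 and Lbr at -1.06 on the log2 scale. In that comparison 4.31% of all genes were higher and 15.2% lower (median -0.17). Tm7sf2, a sterol reductase, had signals of 37.9 in bone marrow Venus+, 16.7 in spleen Venus+ and 6.1 in B220+ cells (2.64 and 1.45 on the log2 scale over B220+ cells). Lbr, which has the same reductase activity and also anchors chromatin at the nuclear envelope, had 63.2, 131.5 and 629.4 (-3.32 and -2.26). Hsd17b7, a sterol ketoreductase, had 2.8, 5.5 and 32.3 (-3.53 and -2.55), the bone marrow value lying below that percentile of spots without a probe.

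Genes of sterol export and uptake held more lower than higher calls in bone marrow Venus+ cells, and most lay within 2-fold in spleen Venus+ cells. The list covers sterol uptake, transport, sensing and SREBP processing. Of 14 genes with a signal on the bone marrow and B220+ arrays, 1 was higher and 6 lower (median -0.63). There 22.5% of all genes were higher and 30.7% lower (median -0.24). Of 16 in the spleen comparison 2 were higher, 3 lower and 11 within 2-fold (median 0.04). The spleen shares of all genes were 15.8% and 16.5%. Mylip, which targets the LDL receptor for degradation, had signals of 9.4, 29.0 and 82.7 in bone marrow Venus+, spleen Venus+ and B220+ cells (-3.14 and -1.51). Soat1, which esterifies cholesterol for storage, had 7.1, 17.9 and 45.4 (-2.68 and -1.34), and the cholesterol exporter gene Abca1 had 10.2, 21.7 and 54.5 (-2.42 and -1.33). Npc2, which carries cholesterol out of lysosomes, was higher in both, with 1722, 1631 and 599.8 (1.52 and 1.44). The lysosomal lipase gene Lipa had 54.1, 130 and 61.8, and was past 2-fold higher in spleen Venus+ cells alone (-0.19 and 1.07).

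Among further fatty acid genes, 5 of 18 were higher and 4 lower in bone marrow Venus+ cells than in B220+ cells (median -0.24), and 4 of 19 higher and 1 lower in spleen Venus+ cells (median -0.30). Of all genes, 22.5% were higher and 30.7% lower in the bone marrow comparison, with the same median of -0.24. The spleen shares were 15.8% and 16.5%, with a median of -0.02. Acss2, which makes acetyl-CoA from acetate, had signals of 155.8 in bone marrow Venus+, 76.0 in spleen Venus+ and 32.4 in B220+ cells (2.27 and 1.23). Me1, a malic enzyme that supplies NADPH, had 38.4, 25.5 and 8.6 (2.16 and 1.57). These 2 suppliers of substrate stood higher in Venus+ cells, whereas Acly, the supplier described above, did not. Mlxip, a glucose-responsive transcription factor, had 75.8, 180.1 and 325.4 (-2.10 and -0.85).

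Further phospholipid genes numbered 30 in both B220+ comparisons, with 5 higher and 8 lower in bone marrow Venus+ cells (median -0.20) and 6 higher and 3 lower in spleen Venus+ cells (median 0.24). The bone marrow counts are smaller shares than the 22.5% higher and 30.7% lower of all genes. In spleen 15.8% of all genes were higher and 16.5% lower (median -0.02). Nothing is read from the counts of either comparison about the list. Slc44a1, a choline transporter, had signals of 44.2 in bone marrow Venus+, 34.7 in spleen Venus+ and 5.1 in B220+ cells (3.12 and 2.77), in the same direction as Chka and Pcyt1a. Its relative Slc44a2 had 27.3, 45.9 and 96.7 (-1.82 and -1.08). Mboat2, a lysophospholipid acyltransferase, had 16.2, 5.1 and 1.6 (3.34 and 1.67), the B220+ value lying below the 95th percentile of spots without a probe on that array, 2.89. Lpcat1, which remodels phosphatidylcholine, had 9.9, 33.0 and 117.5 (-3.57 and -1.83), and Gpat3, a glycerol-phosphate acyltransferase, had 4.9, 9.1 and 54.3 (-3.47 and -2.58).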

How the data were processed

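Total RNA of 3 sorted populations was amplified, labelled with Cy5 and hybridized to 1 Toray 3D-Gene mouse array each, per the labels' protocols. The deposited intensity values were made by the authors, per the series' design text, by subtracting the mean of blank spots within a 95% interval and setting the median detected signal to 25, with null for a spot not detected. Per the file headers, the scanner output gives a median intensity for every spot. Set against them, the deposited table is linear, uncentred and rounded to 0.1, with a median of 25 in each column. Rebuilding the table from the middle 90% of blank spots, with a limit 2 SD above their mean, gave other detection calls for 2 probes in bone marrow Venus+, 1 in spleen Venus+ and 0 in B220+ cells, all on spots the scanner file marks as faulty.

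Symbols came from the platform annotation of 23473 probes, of which 16631 had 1 symbol and 6842 none. Of these, 3947 were updated through RefSeq synonyms. Where a gene had several probes, the one detected on most arrays, then with the highest mean log2 signal, was used. log2 ratios were computed with Python 3.11.15 and pandas 2.3.3. The ratio and call procedure was tested on simulated data. Alternatives were the scanner values, normexp background (limma 3.58.1, offset 50), other scalings, a pseudocount of 5, a minimum signal of 10 and calls at 1.5-fold and 3-fold. All members are named, with up to 3 genes at each end of a further list. The members and lists were chosen with earlier results of these data known.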

Additional observations from a re-analysis of the deposited data

Results flagged for a closer look

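Spots that carry no probe gave a signal more often than the blank spots from which the detection limit was taken. They exceeded that limit in 26.6% of 1102 spots on the bone marrow Venus+ array, 9.26% on the spleen Venus+ array and 48.3% on the B220+ array, against 8.19%, 7.97% and 7.97% of 2736 blank spots and 1.04%, 1.04% and 2.08% of 96 negative control spots. Their 95th percentile was a normalized signal of 3.77, 2.13 and 2.89 in the same order. Of the lipid synthesis genes detected on each array, 1, 0 and 0 lay at or below it, the 1 being Dhcr7 in bone marrow Venus+ cells. The source of this signal was not tested.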

How the results depend on the processing

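Comparisons are named here as bone marrow (bone marrow Venus+ against B220+ cells), spleen (spleen Venus+ against B220+) and organ (bone marrow against spleen Venus+), with 20, 9 and 7 members called. Values rebuilt from the scanner files gave the same members called, and Pcyt1a, Scd1 and Elovl5 were called in bone marrow and spleen under each background, scaling, pseudocount and filter tried. With the normexp background, whose offset shrinks dim ratios by construction, 4, 4 and 1 were called, and Dhcr7 in bone marrow turned to 0.10. A pseudocount of 5 left 13 called in bone marrow. At 1.5-fold 16 were called in spleen and 12 in organ, and at 3-fold 7, 3 and 1. In bone marrow the median of all members was -0.0305 with normexp, -0.14 when scaled to shared probes, 0.0181 after quantile normalization and -0.18 with spots without a probe as background (chosen after seeing the data). The sterol median was 0.19 with normexp, 0.72 scaled and 0.97 with spots without a probe, and that of the fatty acid and phospholipid enzymes -0.23, -0.20 and -0.25, and -0.22 after quantile normalization. Their difference was 0.43 with normexp and 1.22 with spots without a probe. In spleen, the all-member median was -0.0805 for values of 10 or more and 0.51 with spots without a probe, the sterol median 0.13 with normexp and 0.75 with spots without a probe, and that of the others -0.0805 for values of 10 or more and 0.50 with spots without a probe. In organ, the all-member median was -0.0263 with normexp, 0.11 scaled, 0.11 after quantile normalization and -0.0382 for values of 10 or more, the sterol median 0.46 scaled and 0.34 after quantile normalization, and that of the others -0.0682 and -0.10. The sterol enzymes stayed above the others under each of these settings, and causes of the shifts were otherwise not tested. No paired analysis was possible because each population has 1 array, which also limits the precision of all values.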
